A study of Mus musculus with 2 samples.

Results

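In the nuclear RNA of mouse macrophages given Lipid A a second time, 83 genes drew at least 40% of their transcript signal, in both libraries, from transcripts that the annotation marks as targets of nonsense-mediated decay. They were chosen by that share: a gene needed an annotated protein-coding transcript, an RSEM expected count of at least 200 in both libraries, and decay transcripts that held at least 40% of the gene's summed transcript TPM in both. TPM is the relative abundance of a transcript after division by its length. Of 55536 genes, 6026 had a protein-coding transcript and enough counts (called eligible genes here), and 1982 of those had an annotated decay transcript. Genes whose symbols begin with Srsf or Hnrnp, 18 of the 1982, were set aside by the rule, so the 83 were 4.226% of the 1964 genes that could have been chosen. Without that step Hnrnpa1 (83.65% in library 1 and 76.42% in library 2) and Hnrnpd (44.41% and 59.62%) would have entered too.

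Nonsense-mediated decay is the pathway that degrades a messenger RNA whose reading frame ends too early. A stop codon well upstream of an exon junction leaves a protein complex on the RNA past the point where ribosomes stop, and the UPF and SMG proteins read this as the sign of a premature stop. The pathway depends on translation, which takes place in the cytoplasm. Many genes make such transcripts through poison exons, exon skipping, retained introns or shifted splice sites, and genes of splicing factors are known for using them to limit their own protein.

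Both libraries held RNA of primary C57BL/6J macrophages grown from bone marrow. The cells had received Lipid A at 100 ng/ml for 12 h, were washed and rested for 12 h, and then received the same dose again for 40 min. Lipid A is the membrane anchor of bacterial lipopolysaccharide and is sensed by TLR4. RNA of the nucleoplasm was depleted of ribosomal RNA and sequenced. The 2 libraries are labelled as biological replicates of 1 group but carry the same donor entry, sex and age were not collected, and the RNA input was 1 µg for library 1 and 500 ng for library 2. No untreated or cytoplasmic sample was analysed here, so nothing below compares conditions, and every value describes this one state.

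Expected counts on named genes summed to 19797829.1 in library 1 and 17213605.7 in library 2. Mitochondrial genes took 2.627% and 6.602% of them, and the 83 genes took 1.008% and 0.8481%. The 10 macrophage markers examined were all at 16.16 TPM or more in the mean and summed to 3181.6 and 2526.5 TPM, while the sums of marker lists for T cells, B cells, neutrophils, fibroblasts and erythroid cells lay between 0.19 and 8.92 TPM in each library.

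The sequences at the early stops show what sets these transcripts apart from the coding ones. Each leading decay transcript (the most abundant decay transcript of its gene) was compared with the gene's protein-coding transcript of the longest reading frame, called the coding reference below. The first set is shown because an added exon, absent from the reference, carries the stop. Each run starts at the exon's first coding base, is written 5′ to 3′ on the transcript's strand, and ends with the stop codon in capitals.
Il4ra-205: caagtaatgaaaatctgTGA
Ostf1-205: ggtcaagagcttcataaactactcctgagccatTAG
Pdgfc-202: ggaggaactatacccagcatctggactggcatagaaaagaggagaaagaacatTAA
Mtmr2-203: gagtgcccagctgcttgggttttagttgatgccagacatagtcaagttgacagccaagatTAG
Mill2-203: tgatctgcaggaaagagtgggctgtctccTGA
Dnajc5-204: gagggcacTGA
In mm10 coordinates the stop of Il4ra-205 lies at chr7:125571951-125571953 (+ strand), that of Ostf1-205 at chr19:18598954-18598956 (- strand), that of Pdgfc-202 at chr3:81131071-81131073 (+ strand), that of Mtmr2-203 at chr9:13783666-13783668 (+ strand), that of Mill2-203 at chr7:18847269-18847271 (+ strand) and that of Dnajc5-204 at chr2:181548934-181548936 (+ strand). The frame ran for only a short way into each of the 6 exons, between 11 and 63 bases, stop included.

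The second set shows retained introns. In Ddx5-208 the last 5 bases of the run are the first 5 of the intron, so the stop begins 2 bases past the exon's end. The runs of Rabggtb-207 and Vps11-205 begin at the first base of the intron.
Ddx5-208: accgatgtggcctccagagggctaggtTAG
Rabggtb-207: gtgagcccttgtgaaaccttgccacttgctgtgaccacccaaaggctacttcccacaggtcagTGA
Vps11-205: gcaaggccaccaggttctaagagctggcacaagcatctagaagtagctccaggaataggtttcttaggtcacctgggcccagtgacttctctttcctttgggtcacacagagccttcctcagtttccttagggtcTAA
These stops lie at chr11:106783954-106783956 for Ddx5, chr3:153910625-153910627 for Rabggtb and chr9:44356090-44356092 for Vps11, all on the - strand.

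The third set gives the last 27 coding bases and the stop of abundant decay transcripts whose frame was cut by exon skipping or a shifted splice site.
Ctsh-202: tttaagtcatggatgaaacagtggcatTGA
Rnf114-203: tcatcctatctaagatccgggcccatgTGA
Clk2-204: ttcagccgctcatcttcaatgaaattgTAA
Mx1-205: atctgtagatggtccaaactgccttcgTAA
Gbp4-202: cgagggcctgggcgatgtggaaaagggTGA
Rpl12-201: gggtctgtctccgaagaaagttggcgaTGA
Rgs1-204: aagcagaaaaaaaggccaaagactttaTAA
Oas1g-203: cactgtgggcttcatctgtacagagtgTAG
In Ctsh, Rnf114, Clk2, Mx1, Gbp4 and Rpl12 the stop lies inside an exon that the coding reference also has, so the same bases are read there in another frame. In Rgs1 and Oas1g it lies in sequence next to a shifted splice site, outside the reference's exons. The stops are at chr9:90062723-90062725 (+ strand) for Ctsh, chr2:167510904-167510906 (+ strand) for Rnf114, chr3:89170058-89170060 (+ strand) for Clk2, chr16:97451528-97451530 (- strand) for Mx1, chr5:105125622-105125624 (- strand) for Gbp4, chr2:32962594-32962596 (+ strand) for Rpl12, chr1:144248605-144248607 (- strand) for Rgs1 and chr5:120881837-120881839 (- strand) for Oas1g.

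**Figure D1:**
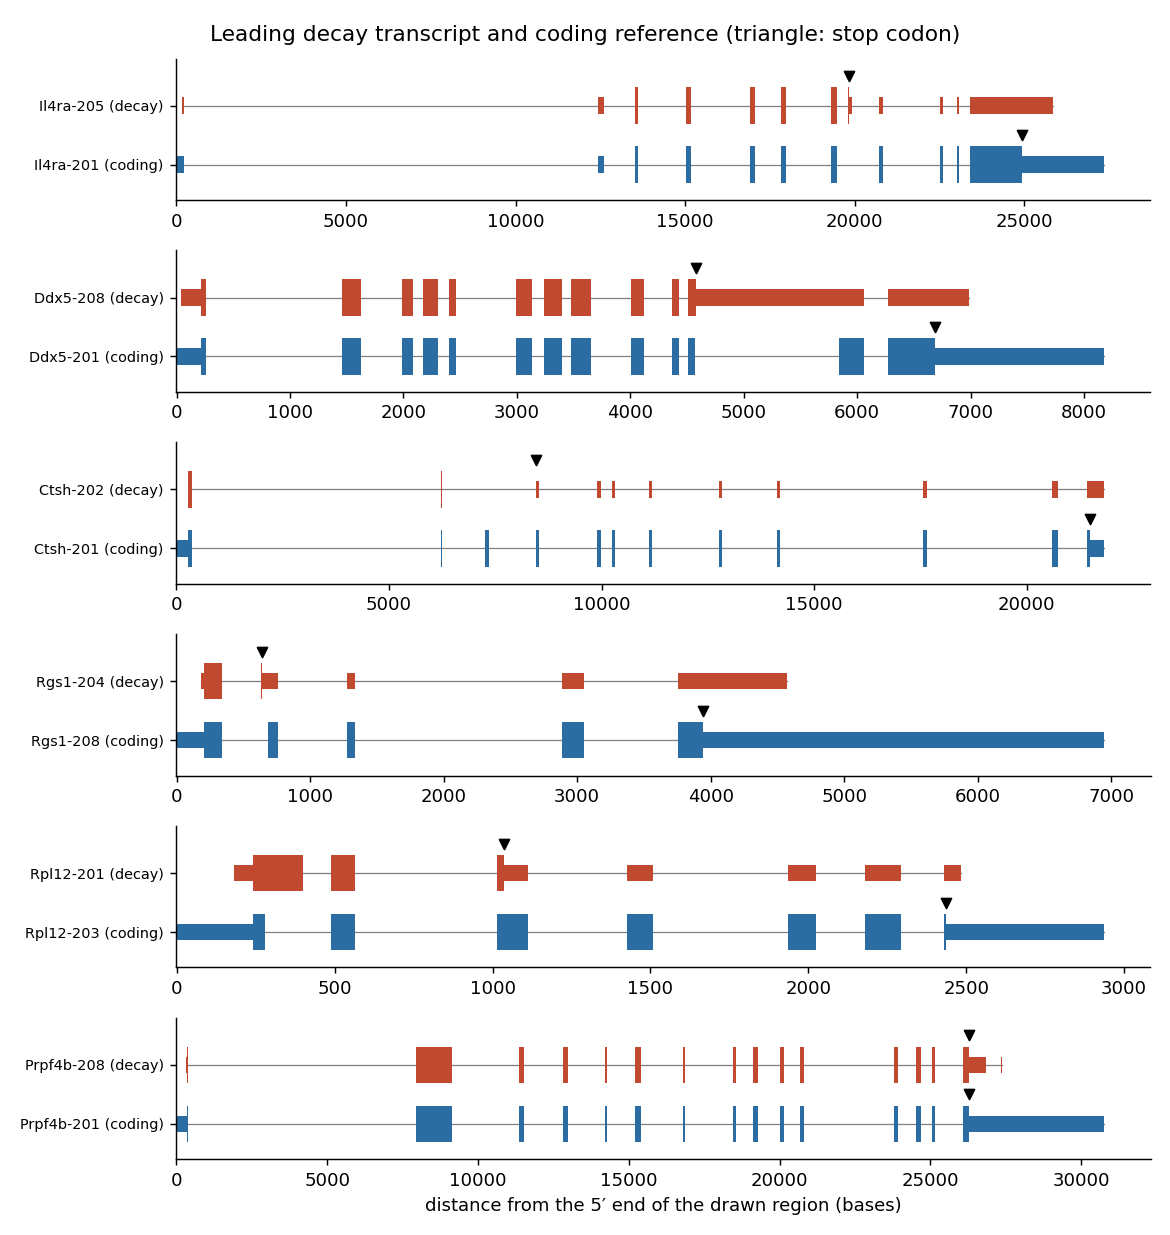
Exons of the leading decay transcript (red) and of the coding reference (blue) for 6 genes, with tall boxes for the reading frame, low boxes for untranslated parts and a triangle at the stop codon. The x axis is the distance in bases from the 5′ end of the region drawn. The decay transcripts stop early through an added exon (Il4ra), a retained intron (Ddx5), a skipped exon (Ctsh) or a shifted splice site (Rgs1, Rpl12), and in Prpf4b both transcripts end at the same stop.

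Over all 83 genes, the stop of the leading decay transcript lay inside an exon of the coding reference in 49, in other sequence outside the reference in 12, at the reference's own stop in 10, in an added internal exon in 9 and in a retained intron in 3. Among the leading decay transcripts of 1541 other eligible genes with a decay transcript above 0 TPM, the shares for these places were 56%, 15.44%, 3.569%, 22.84% and 2.077%, beside 59.04%, 14.46%, 12.05%, 10.84% and 3.614% in the 83. The 10 genes whose frame ends at the reference's own stop were Cdc26, Primpol, Naa60, Snapc3, Gm38394, Prpf4b, Zfp207, Polr1a, Rrp7a and Crebzf. In them an exon junction lies downstream of the stop that the reference also uses, and 4 of them (Zfp207, Polr1a, Rrp7a and Crebzf) are annotated without a start.

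By the kind of change, 42 of the 83 leading decay transcripts had a shifted splice site, 32 skipped an exon of the reference, 18 held an added internal exon and 6 retained an intron, and a transcript could have more than one. In 8 none of these was found. The shares were 50.6%, 38.55%, 21.69% and 7.229%, beside 48.93%, 36.02%, 29.66% and 5.775% in the 1541 others. Of the 15 that differed from the reference only by skipped exons, the skipped bases were not a multiple of 3 in 15. The decay class calls for an early stop, so this count is tied to the class that chose the transcripts. No such count is given for the 1541 others. Of 12 that differed only by added exons, the added bases were not a multiple of 3 in 9, and the 3 others were Il4ra, Mtmr2 and Dnajc5, with 114, 105 and 75 added bases.

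Every one of the 83 stops lay more than 50 nt before the last exon junction, as did 99.48% of those of the others. The annotation assigns the decay class by such a distance, so these counts follow from the class that chose the transcripts. The distance ran from 64 nt in Dnajc5 to 12430 nt in Stard9, with a median of 447 nt beside 398.5 nt in the others. The median leading decay transcript was 3106 nt long beside 1652 nt, and its frame spanned 37.46% of the reference frame beside 20.96%. It carried the annotation's best support level in 51 of 83 (61.45%) beside 34.78% of the others, and 11 of 83 (13.25%) lacked an annotated start beside 31.41%. These structural comparisons were added after the values were seen and are given as descriptions without a test.

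The share of a gene's TPM that lay in decay transcripts, which chose the genes, had a median of 53.25% (50.97% in library 1 and 54.68% in library 2), beside 4.429% over the 1982 genes with a decay transcript. Protein-coding transcripts held a median of 30.09% in the 83 and 61.56% in the 1982, and transcripts annotated as retained introns 5.819% and 22.03%. A gene's class shares add up to its whole, so the lower coding and retained-intron shares are tied to the choice. The decay share was at least 50% in both libraries in 38 genes, at least 60% in 20 and at least 75% in 6. The leading decay transcript was above the leading coding transcript in both libraries in 65 of 83. This count uses the TPM values that chose the genes, so it is tied to the choice. No matching count over the 1982 is given.

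The median difference between libraries in a gene's decay share was 8.092 percentage points in the 83 and 2.19 in the 1982. A difference in points cannot exceed the larger share, and the median share of the 1982 was 4.429%. The 2 figures are therefore not on an equal footing. In the 83 the difference was under 10 points in 52 genes and over 20 in 2, Tnfrsf8 and Fbxl4. The share was higher in library 2 in 50 of the 83. The matching count over the 1982 is not given here, so this is not read as a trait of the 83. The genes just inside the minimum were Enpp1 (43.35% and 40.18% in libraries 1 and 2), Grtp1 (40.35% and 51.94%) and Wiz (42.37% and 40.37%). Those just outside it were Gga1 (46.56% and 39.92%), Arih2 (39.71% and 47.22%) and Ppia (39.56% and 65.14%). A gene near the minimum can therefore fall on either side of it by less than the difference between these libraries.

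**Figure D2:**
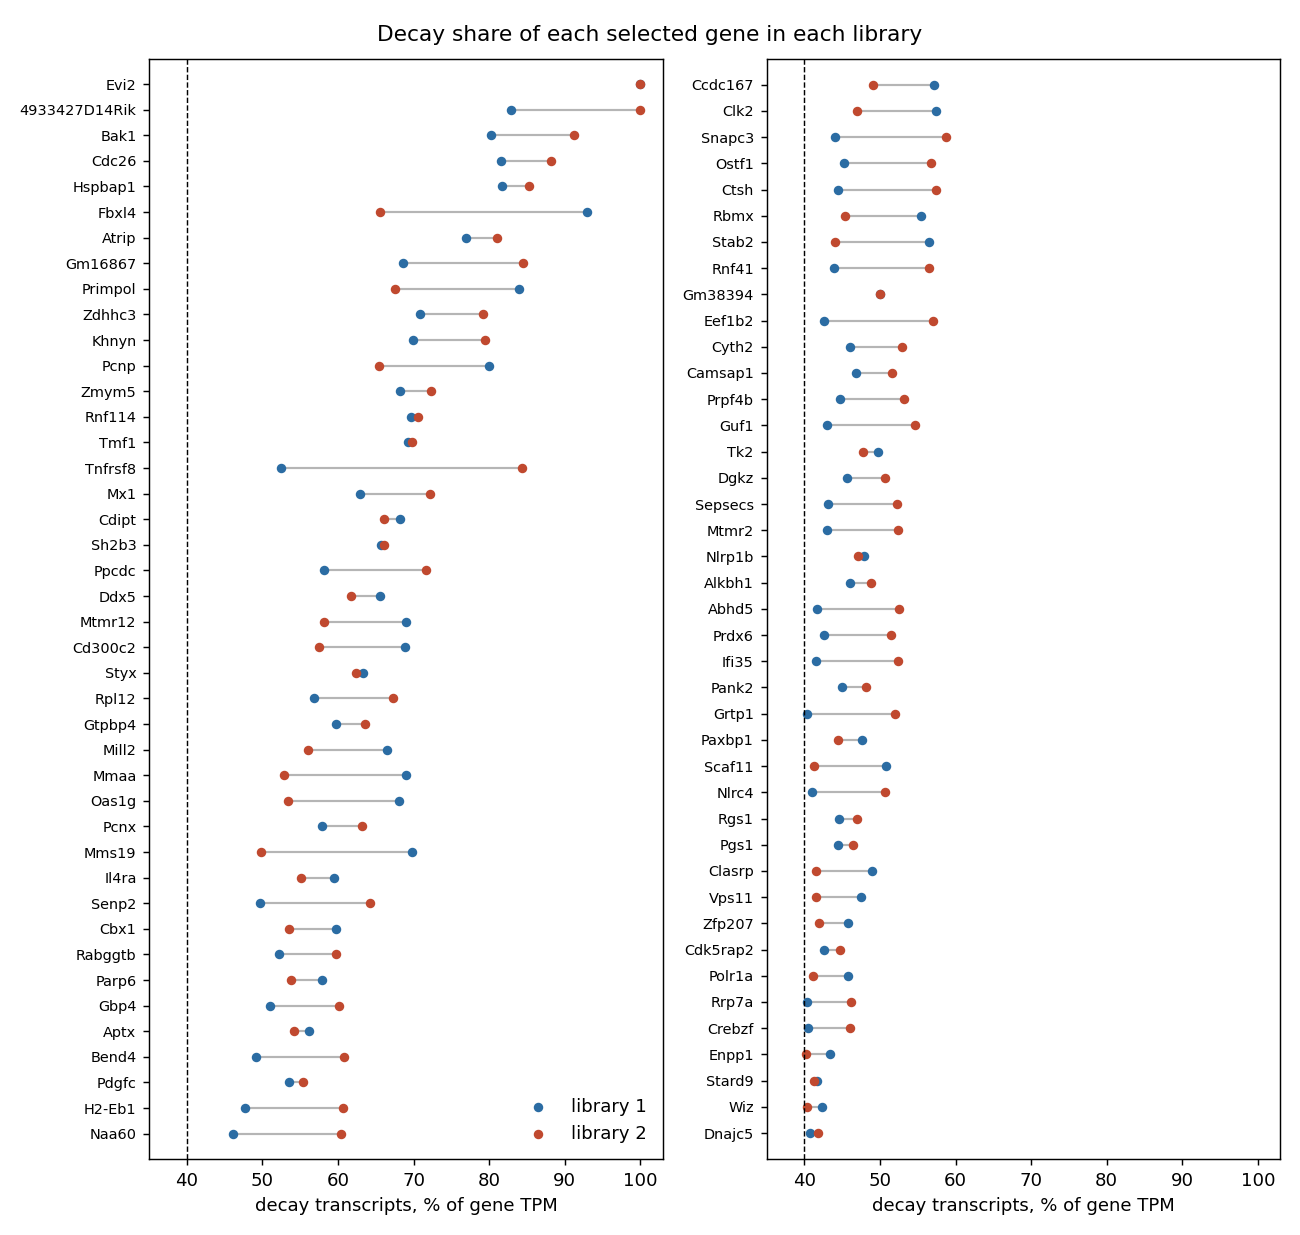
Decay transcripts as a percentage of the gene's TPM (x axis) for each of the 83 genes in library 1 (blue) and library 2 (red), ordered by the mean, with the minimum of 40% as a dashed line. The grey bar is the difference between libraries, widest in Tnfrsf8 at 31.81 points.

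The 15 genes with the highest mean shares began with Evi2, a gene at an integration site of murine leukaemia virus, which was at 100% in both libraries. 4933427D14Rik was at 82.82% and 100%, and Bak1, a pore-forming protein of the mitochondrial outer membrane that carries out apoptosis, at 80.18% and 91.25%. Cdc26, a small subunit of the anaphase-promoting complex, was at 81.61% and 88.17%, and Hspbap1 at 81.68% and 85.29%. In each of these 5 the decay transcripts held over 80% in both libraries. By RSEM's posterior means, another estimate in the same tables, Evi2 was at 57.67% and 59.75% and 4933427D14Rik at 61.06% and 56.38%, so their values near 100% depend on the estimate.

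Fbxl4, an F-box protein of mitochondria, was at 92.88% and 65.61%, Atrip, the partner of the ATR checkpoint kinase, at 76.94% and 81%, and Gm16867 at 68.65% and 84.51%. Primpol, which restarts stalled DNA replication, was at 83.96% and 67.56%, Zdhhc3, a palmitoyltransferase of the Golgi, at 70.78% and 79.23%, and Khnyn, a cofactor of the antiviral protein ZAP, at 69.96% and 79.45%. Pcnp was at 79.91% and 65.46%, Zmym5 at 68.17% and 72.24%, Rnf114, a ubiquitin ligase, at 69.61% and 70.62%, and Tmf1, a Golgi protein, at 69.29% and 69.79%. Rnf114 and Tmf1 differed between libraries by about 1 point or less, whereas Fbxl4, Primpol, Gm16867 and Pcnp differed by over 10.

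Several of these shares rest on sequence that other genes also hold. In Evi2-201, the leading decay transcript of Evi2, 57.31% of bases are exon bases of Evi2a or Evi2b on the same strand, and these were at 99.7 and 88.43 TPM (Evi2a) and 52.65 and 50.71 TPM (Evi2b), against 6.83 and 7.63 TPM for Evi2. In the leading decay transcript of Atrip, 27% of bases are shared with Trex1, the DNA exonuclease gene next to it, at 76.45 and 60.5 TPM against 7.47 and 8.63 TPM. Gm38394 shares 91.82% with Zbed6 and Zc3h11a, and its decay transcript is identical in sequence to its coding transcript, Gm38394-201, so that both programs gave it 50% in both libraries. In Gm16867, 60.95% of bases lie opposite exons of a gene on the other strand. Altogether 8 of 83 leading decay transcripts shared exon bases with another gene on their strand and 20 with a gene on the other strand. For Ddx5 and Rabggtb, among the 8, the genes on their strand were small RNA genes only. No matching counts are given for other genes with a decay transcript, so these are not read as a trait of the 83. The strand setting of the counting is not given in the sources used here, so how reads of these genes were divided is uncertain, and the values of Evi2, Atrip, Gm38394 and Gm16867 should be read with that limit.

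Levels spanned a wide range. The mean gene TPM of the 83 ran from 2.215 to 747.2 with a median of 13.31, beside 15.52 over the 6026 eligible genes. The summed decay TPM ran from 0.945 to 488.0 with a median of 6.93. In 64 of 83 genes the leading decay transcript had a lower bound of at least 1 TPM in both libraries. The bound is that of RSEM's deposited credibility interval, whose level is not stated. The interval covers the assignment of reads within a library and not the difference between libraries. The minimums for share and counts that chose the genes favour such a bound. No matching count over other genes is given.

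Interferon-induced genes and sensors of infection made up 7 of the 83, with Khnyn, described above as a cofactor of ZAP, counted among them. Mx1, an interferon-induced GTPase that blocks influenza virus, reached 1100.4 TPM in library 1, the highest level of the 83 there, and 394.0 TPM in library 2. Its decay transcripts held 62.88% and 72.11% of that (67.5% ± 6.53, SD, n = 2), led by Mx1-205 at 535.8 and 238.0 TPM by RSEM. By kallisto Mx1-205 was at 26.35 and 10.88 TPM, below the decay transcripts Mx1-203 (97 and 102.0 TPM) and Mx1-210 (41.86 and 32.43 TPM), so the programs name different leading transcripts. Mx1-205 skips 4 exons of the reference and has a frame of 309 codons instead of 627. The transcript with the full frame, Mx1-201, was at 3.68 and 1.12 TPM by RSEM, under 1% of the gene in each library, and at 45.18 and 48.64 TPM by kallisto. Many inbred laboratory strains, C57BL/6 among them, are known to carry a deletion in Mx1 that disrupts its protein.

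Oas1g, of the oligoadenylate synthetases that sense double-stranded RNA, was at 146.6 and 89.24 TPM, with decay shares of 68% and 53.31%. Its coding transcript, Oas1g-201, was at 13.44 and 13.89 TPM beside 99.68 and 47.58 TPM for the decay transcript Oas1g-203. By kallisto the coding transcript was at 3.179 and 9.895 TPM and the decay transcript at 26.49 and 31.7 TPM. The decay transcript was the higher in both libraries by both programs, while the difference between libraries depended on the program. Gbp4, a guanylate-binding protein of cell-autonomous defence, was at 118.9 and 80.7 TPM with decay shares of 50.97% and 60.1%, and its decay transcript ends after 103 of 631 codons. The full-length Gbp4-201 was at 2.76 and 3.17 TPM beside 60.61 and 48.51 TPM for Gbp4-202. Gbp4 has near-identical neighbours in the same family, so its counts are uncertain in that respect.

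Ifi35, another interferon-induced gene, was at 68.6 and 44.49 TPM with decay shares of 41.47% and 52.44%. Its leading decay transcript, 28.45 and 23.33 TPM, was about level with its leading coding transcript, 28.06 and 17.58 TPM. Nlrp1b, a sensor that builds an inflammasome, had decay shares of 47.87% and 47.03%, Khnyn of 69.96% and 79.45%, and Nlrc4, the inflammasome protein that acts with NAIP sensors of bacteria, of 41.03% and 50.64%. The 7 genes of this group ran from 45.83% to 74.71% in the mean decay share, the highest being that of Khnyn. The role groups used here were formed by hand after the members were known, and they cover 43 of the 83 genes.

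Receptors, signalling proteins and antigen presentation genes of immune cells made up 11 of the 83. The 11 include Bak1, the apoptosis protein described above, which has none of these named roles and the group's highest mean share, 85.72%. Il4ra, the receptor subunit shared by interleukin-4 and interleukin-13, was at 59.33 and 31.3 TPM, and its decay transcript Il4ra-205 held 59.5% and 55.14% of it (57.3% ± 3.08, SD, n = 2). Il4ra-205 was at 35.3 and 17.26 TPM beside 18.03 and 11.04 TPM for the coding Il4ra-201. Its frame of 230 codons ends in the added exon shown above, where the reference has 810. Mouse cells are known to make a soluble form of this receptor from an alternatively spliced messenger RNA.

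Rgs1, which switches off G-protein signals from chemokine receptors, was at 450.8 and 456.2 TPM, and its decay transcripts held 44.62% and 46.91%. Transcripts annotated as retained introns held 52.17% and 48.54% of it, and the full coding transcript Rgs1-208 only 12.82 and 20.78 TPM, 2.844% and 4.555% of the gene. Of the 10 genes with the highest decay TPM, Rgs1 was the one with the smallest coding share in both libraries. Its leading decay transcript, Rgs1-204, at 152.4 and 166.8 TPM, stops after 46 codons.

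Ctsh, a lysosomal cysteine protease, was at 201.2 and 170.0 TPM with decay shares of 44.42% and 57.42%. Ctsh-202 skips an exon of 106 bases, stops after 41 of 333 codons, and was at 89.38 and 97.61 TPM beside 41.67 and 33.72 TPM for the coding Ctsh-201. The decay transcript was the more abundant in both libraries. Cd300c2, a paired receptor of myeloid cells, was at 51.41 and 33.4 TPM with decay shares of 68.87% and 57.51%. Tnfrsf8, the receptor CD30, met the count minimum narrowly, with 201 and 202 counts, and its shares of 52.49% and 84.3% lay farther apart than those of any other of the 83. Outside the naming rule, and chosen after the values were seen, H2-Eb1, a chain of MHC class II, had shares of 47.65% and 60.64%, and Sh2b3, an adaptor that restrains cytokine signalling, of 65.69% and 66.03%.

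**Figure D3:**
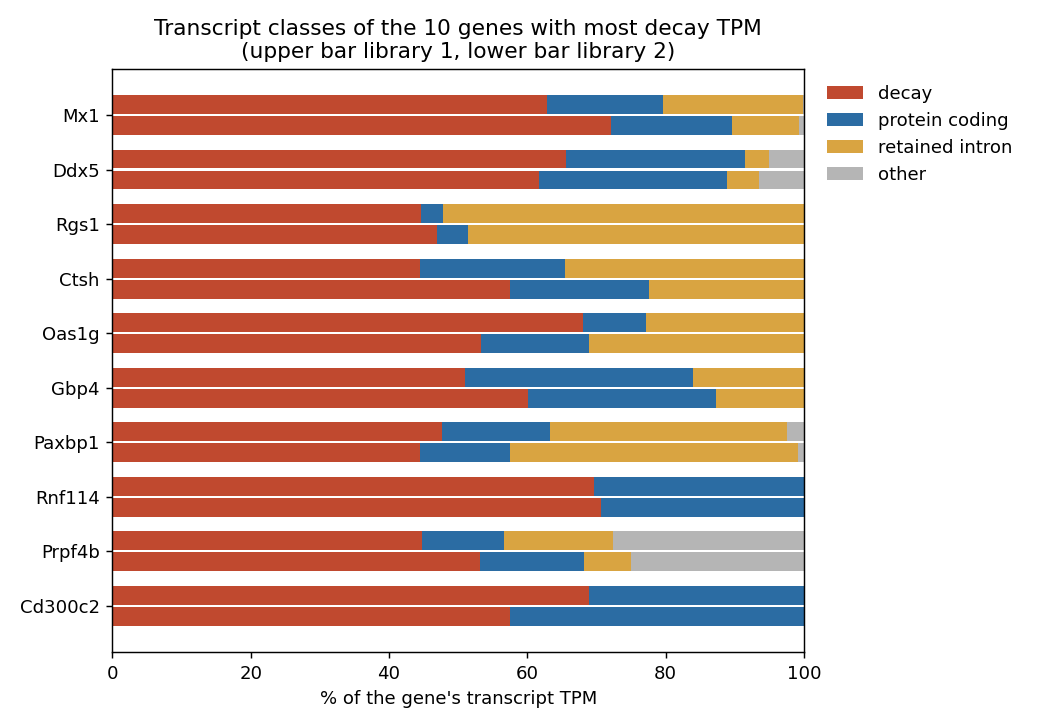
Share of the gene's transcript TPM (x axis) by annotated class for the 10 genes with the highest decay TPM, with library 1 as the upper and library 2 as the lower bar of each pair. Decay transcripts (red) exceed coding ones (blue) in both libraries for all 10, and in Rgs1 almost all of the remainder is annotated as retained intron.

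Splicing and RNA processing genes made up 8 of the 83. Ddx5, an RNA helicase of splicing and transcription, was at 479.4 and 364.6 TPM with decay shares of 65.58% and 61.66% (63.6% ± 2.77, SD, n = 2). Ddx5-208, which retains the intron after its exon 11, was at 312.3 and 170.2 TPM beside 113.9 and 89.97 TPM for the coding Ddx5-201. A further decay transcript, Ddx5-205, had 2.03 TPM in the first library against 54.61 TPM in the second, so the libraries were alike in the summed share but not in the transcripts that made it up. Annotated small RNA genes (Gm25994 and Mir3064) lie within Ddx5-208, and Mir3064 had no counts.

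Prpf4b, a kinase of the spliceosome, was at 74.54 and 40.38 TPM with decay shares of 44.69% and 53.21%. Its decay transcript Prpf4b-208 has the same 1007 codons as the reference and an extra junction 535 nt after the stop. Paxbp1 was at 120.3 and 66.66 TPM with decay shares of 47.64% and 44.5%, and 34.28% and 41.64% of it was in retained-intron transcripts. Clk2, a kinase that phosphorylates SR splicing factors, was at 18.16 and 12.62 TPM with decay shares of 57.43% and 46.99%. Clk2-204 skips an exon of 88 bases and stops after 136 of 500 codons, and it was at 10.43 and 5.93 TPM beside 1.19 and 1.06 TPM for the coding Clk2-201. Zfp207, a zinc finger protein of the mitotic spindle, was also placed in this group by hand and has its lowest mean share. It was at 63.46 and 53.03 TPM with decay shares of 45.71% and 41.94%. One decay transcript of Zfp207, Zfp207-207, is identical in sequence to the coding Zfp207-208, and without it the decay share was 24% and 22.36%. Rbmx, an RNA-binding protein of the hnRNP G family, Scaf11 and Clasrp, both related to SR proteins, completed the group, which ran from 43.83% to 63.62% in the mean share.

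Genes of the ribosome, translation and ribosome assembly numbered 7, with mean shares from 43.28% to 62.07%. Rpl12, a protein of the large ribosomal subunit, was at 24.47 and 15.33 TPM with decay shares of 56.86% and 67.28%. Rpl12-201 uses a donor site farther into the first intron and stops after 84 of 165 codons, and it was at 13.92 and 10.32 TPM by RSEM but at 0.398 and 0.413 TPM by kallisto. Ribosomal protein genes have many near-identical processed copies, so the assignment of Rpl12 reads is uncertain. Eef1b2, a subunit of the exchange factor of translation elongation, was at 28.77 and 23.11 TPM with shares of 42.63% and 56.99%. The others were Guf1, Sepsecs, Gtpbp4, Rrp7a and Polr1a.

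Ubiquitin and SUMO pathway genes numbered 5, with mean shares from 50.23% to 84.89%. Rnf114 was the most abundant, at 47.71 and 34.59 TPM, and its decay transcript Rnf114-203, which skips an exon of 151 bases and stops after 57 of 229 codons, was at 33.22 and 24.42 TPM beside 13.38 and 9.36 TPM for the coding Rnf114-201. DNA repair and genome stability genes also numbered 5, Atrip, Primpol, Aptx, Mms19 and Alkbh1, with mean shares from 47.42% to 78.97% and mean gene levels from 4.975 to 14.22 TPM.

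The lists of pathway genes contributed few members, at rates read against 4.226% over all genes that could have been chosen. Of 62 splicing and RNA-binding genes known for poison exons or autoregulation, 41 were eligible with a decay transcript and 2, Clk2 and Ddx5, were members (4.878%). The list was made without Srsf and Hnrnp genes. Its median decay share was 10.86%. Of 120 ribosomal proteins and translation factors, 21 had a decay transcript and 2, Rpl12 and Eef1b2, were members (9.524%). Of 76 genes of the macrophage immune response, 22 had one and 1, Mx1, was a member (4.545%). None of 7 known decay targets with upstream reading frames or stress induction, and none of 2 selenoprotein genes, reached the minimum, and lists this short give no rate to compare.

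Factors of decay and related RNA turnover were not among the 83. Of 28 examined, 23 were eligible, and 4 of those had an annotated decay transcript, with a median share of 0.4613%. By level, Pabpc1, the cytoplasmic poly(A)-binding protein, led at 184.2 ± 49.9 TPM (SD, n = 2), followed by Smg1, the kinase that phosphorylates UPF1, at 61.7 ± 10.7 TPM and Etf1, the translation release factor, at 34.8 ± 9.36 TPM. The lowest was Pnldc1 at 0.795 ± 0.912 TPM, a relative of the deadenylase PARN that trims piRNAs and is not itself a factor of nonsense-mediated decay. It had 13 and 1 counts, too few to be eligible, with decay shares of 69.44% and 100%. The median was 10.84 TPM. RNA of the pathway was thus present in these libraries of the nucleoplasm. The purity of the fraction was not examined, and the activity of the pathway was not measured.

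Between the libraries, the levels of all but 1 of the 83 genes kept within 2-fold. The ratio of library 2 to library 1 was centred on the median of all eligible genes, which was -0.36 on the log2 scale before centring. None of the 83 was at least 2-fold higher in library 2, where 0.962% of the eligible genes were, and 1, Mx1, was at least 2-fold lower, where 0.714% were. The call on Mx1 was lost in counts scaled to library size, where 0 of the 83 were 2-fold lower, and 5 were without centring. The median centred log2 ratio of the 83 was -0.06, with 38 higher and 45 lower, and the extremes were Mx1 at -1.12 and Bak1 at 0.89. Of the 7 genes in the interferon-induced and sensor group, Khnyn included, 6 were lower in library 2, with a median of -0.27. So were 6 of 8 splicing and RNA processing genes and 5 of 11 receptor, signalling and antigen presentation genes, with Bak1 counted in the 11. In the other role groups, 2 of 7 ribosome and translation genes, 3 of 5 DNA repair genes and 3 of 5 ubiquitin and SUMO genes were lower. By the centring, eligible genes lie evenly below and above the centre. With 1 library on each side these ratios have no replicate check, and the libraries also differ in RNA input and in mitochondrial counts, whose part in the ratios was not tested.

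**Figure D4:**
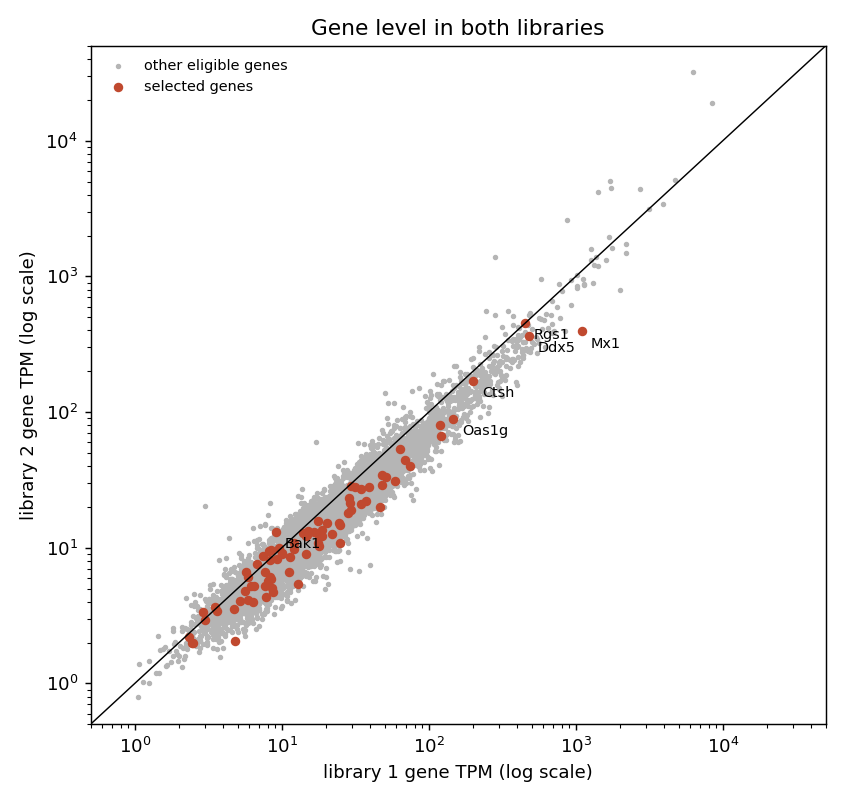
Gene level in TPM in library 1 (x axis) and library 2 (y axis), both on log scales, for the 83 selected genes (red) and the other eligible genes (grey), with the line of equal level. Mx1, at 1100.4 and 394.0 TPM, is the selected gene farthest below the line.

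The same reads were also quantified by kallisto, which assigns them to transcripts by a different method. It gave 46 of the 83 genes a decay share of at least 40% in both libraries (55.42%), and 20 of the 83 fell under 40% in both. Among all 6026 eligible genes, 66 reached that share (1.1%), the 46 included. Only the 1982 with an annotated decay transcript could reach it. A further 20 genes outside the 83 reached 40% by kallisto in both libraries. Genes with Srsf or Hnrnp symbols were not set aside in this count. The median share of the 83 was 45.56% by kallisto, and RSEM gave the higher value in 63 of 83, as against 682 of the 1982 genes with a decay transcript. Since the genes were chosen on RSEM values and both programs read the same libraries, the fall from 53.25% describes the choice as well as the programs.

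The 5 widest gaps between programs were in Tnfrsf8, Camsap1, Nlrc4, Gm16867 and Zmym5. Tnfrsf8 was at 52.49% and 84.3% by RSEM and at 4.925% and 0% by kallisto. Nlrc4 was at 41.03% and 50.64% against 3.814% and 2.962%, and Camsap1, which binds the minus ends of microtubules, at 46.77% and 51.53% against 16.11% and 5.059%. For these 3 the programs disagree on whether decay transcripts are a main or a minor part of the gene. Gm16867 was at 68.65% and 84.51% against 21.16% and 48.37%, and Zmym5 at 68.17% and 72.24% against 34.62% and 24.99%.

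Among the 10 genes with the highest decay TPM, the programs differed gene by gene. Ddx5 was at 66.15% and 60.33% by kallisto and Cd300c2 at 65.14% and 59.33%, near their RSEM values. Rgs1 was at 45.08% and 49.31%, Mx1 at 40.69% and 42.05%, and Oas1g at 54.84% and 42.97%. Ctsh came to 29.32% and 39.82%, Gbp4 to 35.58% and 45.61%, Paxbp1 to 37.57% and 36.27%, and Rnf114 to 39.2% and 61.15%. Prpf4b was at 40.27% and 45.86%. Of these 10, Ddx5, Cd300c2, Rgs1, Mx1, Oas1g and Prpf4b were thus at 40% or more in both libraries by both programs, and Ctsh, Gbp4, Paxbp1 and Rnf114 were not. Il4ra, with less decay TPM, was at 63.43% and 64% by kallisto. Over the 83 genes, the most abundant decay transcript was the same by both programs in each library in 66. Genes with a single annotated decay transcript, Il4ra and Nlrc4 among them, could not differ in this respect. The count is therefore no measure of how well the programs match.

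**Figure D5:**
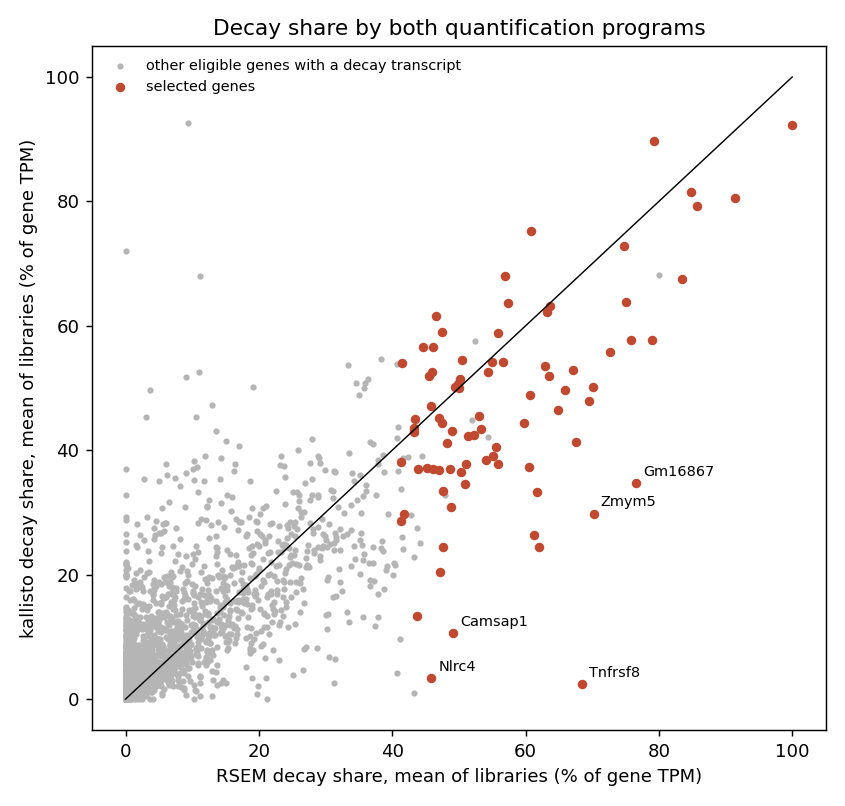
Mean decay share of the libraries by RSEM (x axis) and by kallisto (y axis), in percent of the gene's TPM, for the 83 selected genes (red) and the other eligible genes with a decay transcript (grey), with the line of equal share. Most selected genes lie below the line, and the 5 with the widest gaps are named.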

How the data were processed

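Nuclear-fraction RNA of 2 libraries in 1 group was analysed. The authors deposited, per the file headers, RSEM expected counts and TPM per gene and transcript and kallisto estimated counts and TPM per transcript, on mm10 with GENCODE M21. The aligner, strand setting and program versions are not stated there or in the labels. The deposited RSEM tables also hold posterior means and credibility bounds of TPM, treated as score values because the authors' files state no level for them. Transcript classes came from the annotation field of the kallisto identifiers. Shares, ratios and medians were computed in Python 3.11.15 with pandas 2.3.3 and numpy 2.4.6, and the scripts were tested on simulated data. The library ratio is log2 of TPM with no pseudocount, centred on the eligible genes. Exons, reading frames and sequences came from the GENCODE M21 files, by transcript name.

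The members and lists were chosen with earlier results of these data known. Genes named were the 15 highest shares, 10 highest decay TPM, 10 highest gene TPM, 3 on each side of the minimum, members past 2-fold, the 5 widest program gaps and list members, 35 in all; others were named after their values were seen. With 2 libraries of 1 group no test between conditions was run. Whether they came from separate cultures is not stated, so the spread may be technical. Other minimums, other values for the share, other scalings and single libraries were tried. Depth was 19797829.1 and 17213605.7 expected counts.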

Additional observations from a re-analysis of the deposited data

How the results depend on the processing

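The number of genes moved with the rule: 147 at a minimum share of 30%, 38 at 50%, 167 at a minimum count of 10, 44 at 500, and from 116 to 128 when each library was left out in turn, beside 83. The median decay share of the 83 was 45.56% by kallisto and 50.34% by RSEM's posterior means, beside 53.25%. Their median gene level was 6.55 TPM by kallisto beside 13.31. The genes at least 2-fold lower in library 2 numbered 5 without centring (322 of the 6026 eligible genes), 0 in counts scaled to library size (32) and 2 by kallisto (38), beside 1 (43), and the median log2 ratio was -0.42 without centring beside -0.06. The cause of these shifts was not tested, except that looser minimums or fewer libraries admit more genes by construction. Of 65 genes chosen by kallisto shares 46 were among the 83, of 84 chosen by expected-count shares 56 were, and of 70 chosen by posterior means 69 were. Depth limits the genes near 200 counts, and each share is an estimate of how reads shared among isoforms were divided. No paired analysis was possible because both libraries belong to 1 group.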
